A study of Homo sapiens with 18 samples.

Results

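The kinesin motor family was measured in OCI-AML3 cells, a human acute myeloid leukaemia line, as every probe whose only gene symbol begins with KIF or KIFC followed by a digit. The rule found 43 symbols among 17687 distinct symbols on 21448 probes, each with 1 probe. Of these, 42 are kinesin motor genes and 1, KIF25-AS1, is an antisense RNA that encodes no motor. By textbook role, 15 of the 42 act in mitosis or cytokinesis, 15 carry cargo, and 12 act at cilia or centrioles or have other roles. These classes rest on general knowledge, and KIF2A (also active outside mitosis) and KIF24 (a centriolar kinesin-13) could be placed otherwise.

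The cells were exposed for 24 h to RG7112 at 2 µM, to HDM201 at 500 nM or to the solvent DMSO, with 6 arrays in each group. RG7112 and HDM201 are small molecules that fill the pocket through which MDM2 holds p53, and so free p53 from its main ubiquitin ligase. All 18 arrays come from this 1 line, labelled wild type, and the labels call the samples of a group biological replicates without describing separate cultures. The values are log2 signals of total RNA on an expression array, so a difference of 1 is a 2-fold change. The number of arrays limits the precision, and levels of different probes were not set against each other.

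Kinesins are motors that bind microtubules and use ATP to walk along them or to take their ends apart. Transport kinesins carry vesicles, organelles and ciliary cargo through tails that bind light chains or adaptors, whereas mitotic kinesins push spindle poles apart, position chromosomes and build the midzone where a cell divides. Many mitotic kinesin genes are switched on late in the cell cycle, and their promoters are known for the cell cycle genes homology region (CHR) and CCAAT boxes, which bind the DREAM complex, its activating counterpart with MYBL2 and FOXM1, and the factor NF-Y.

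Promoter windows from RefSeq (GRCh38.p14, 250 bases before and 50 after a transcript start) were found for 35 of the 43 symbols, and KIF13B, KIF19, KIF21B, KIF26B, KIF27, KIF5A, KIFC2 and KIFC3 had none. Windows of 7 genes that carry the contrast are shown 5′ to 3′ on the gene's strand, with matches on either strand in capitals. The letters searched were TTTGAA for the CHR, CCAAT for the CCAAT box, and TTTGGCGC or TTTCCCGC for an E2F-like site, each on both strands. Variant forms of these sites were not searched, so a window without a match may still hold one. KIF11, KIF15, KIF23 and KIF4A had lower signal with both compounds, and each holds TTTGAA. KIF4B is the near-copy of KIF4A whose difference did not pass the test, KIF20A had lower signal without TTTGAA, and KIF5B is a transport kinesin that holds both motifs.
KIF11 (chr10:92592880-92593179, plus strand): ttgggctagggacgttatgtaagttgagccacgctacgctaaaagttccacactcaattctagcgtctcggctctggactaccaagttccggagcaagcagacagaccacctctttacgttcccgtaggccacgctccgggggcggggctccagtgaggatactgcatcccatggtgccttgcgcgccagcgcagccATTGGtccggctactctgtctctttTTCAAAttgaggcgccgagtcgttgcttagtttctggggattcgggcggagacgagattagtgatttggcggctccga
KIF15 (chr3:44761544-44761843, plus strand): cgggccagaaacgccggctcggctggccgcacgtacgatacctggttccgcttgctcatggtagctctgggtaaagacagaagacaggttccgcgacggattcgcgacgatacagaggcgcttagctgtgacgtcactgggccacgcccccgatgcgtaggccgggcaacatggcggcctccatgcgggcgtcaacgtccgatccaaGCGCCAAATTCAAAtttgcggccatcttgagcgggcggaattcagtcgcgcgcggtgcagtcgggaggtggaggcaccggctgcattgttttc
KIF23 (chr15:69414099-69414398, plus strand): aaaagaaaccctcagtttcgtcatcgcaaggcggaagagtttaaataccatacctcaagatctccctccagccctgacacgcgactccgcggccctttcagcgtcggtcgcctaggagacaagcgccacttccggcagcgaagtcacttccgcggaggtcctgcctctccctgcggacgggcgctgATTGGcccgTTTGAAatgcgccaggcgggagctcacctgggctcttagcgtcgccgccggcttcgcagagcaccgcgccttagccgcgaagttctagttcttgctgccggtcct
KIF4A (chrX:70289854-70290153, plus strand): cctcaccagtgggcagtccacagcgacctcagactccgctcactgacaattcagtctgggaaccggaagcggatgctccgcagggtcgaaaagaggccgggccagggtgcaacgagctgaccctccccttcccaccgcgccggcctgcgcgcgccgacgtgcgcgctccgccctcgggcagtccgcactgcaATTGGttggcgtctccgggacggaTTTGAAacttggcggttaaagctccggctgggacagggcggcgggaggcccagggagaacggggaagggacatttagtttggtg
KIF4B (chr5:155013505-155013804, plus strand): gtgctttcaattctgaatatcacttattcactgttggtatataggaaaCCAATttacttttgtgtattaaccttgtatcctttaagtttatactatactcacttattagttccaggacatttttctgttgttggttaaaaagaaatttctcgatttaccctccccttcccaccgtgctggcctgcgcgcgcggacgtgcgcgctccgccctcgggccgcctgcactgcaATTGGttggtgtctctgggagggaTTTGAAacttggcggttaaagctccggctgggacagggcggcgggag
KIF20A (chr5:138178862-138179161, plus strand): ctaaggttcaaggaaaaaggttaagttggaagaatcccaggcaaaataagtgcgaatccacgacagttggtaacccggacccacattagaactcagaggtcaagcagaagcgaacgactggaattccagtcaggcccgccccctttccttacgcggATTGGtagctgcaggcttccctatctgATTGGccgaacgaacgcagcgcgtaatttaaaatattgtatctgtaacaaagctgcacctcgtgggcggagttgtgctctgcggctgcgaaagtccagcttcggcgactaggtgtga
KIF5B (chr10:32056376-32056675, minus strand): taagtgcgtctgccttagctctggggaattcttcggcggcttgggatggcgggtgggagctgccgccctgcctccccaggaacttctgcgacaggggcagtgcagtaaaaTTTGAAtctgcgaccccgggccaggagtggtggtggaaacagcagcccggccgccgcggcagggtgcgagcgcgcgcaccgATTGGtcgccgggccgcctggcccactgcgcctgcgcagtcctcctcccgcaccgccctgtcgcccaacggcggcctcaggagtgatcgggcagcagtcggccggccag

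TTTGAA was present in the windows of 10 of 15 mitotic kinesins (66.7%), 1 of 11 transport kinesins (KIF5B) and 0 of 8 ciliary or other kinesins with a window. Among all 27305 genes with windows, 18.2% held it in at least 1 window, and 15.2% of all 35116 windows held it. In the 10 mitotic genes the matches lay between positions -55 and 36 relative to the start, while the KIF5B match began at -140. CCAAT was found for 11 of 15 mitotic (73.3%), 4 of 11 transport (36.4%) and 3 of 8 ciliary or other kinesins (37.5%), against 39.7% of all genes. The E2F-like letters occurred in KIF15 and KIF25 only, against 2.75% of all genes, and no 2 matches overlapped. The mitotic genes without TTTGAA in the window were KIF20A, KIF22, KIF2A, KIF2B and KIF2C. KIF24, which was lower with both compounds, did not hold it either. Of 14 motor genes lower with both compounds, 9 held TTTGAA (64.3%), against 2 of the 20 others with a window (10%). Over a stretch of 144 bases the KIF4A and KIF4B windows were identical at 135 positions (93.8%), with TTTGAA inside the stretch in both. These matches describe letters and do not show binding.

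**Figure D1:**
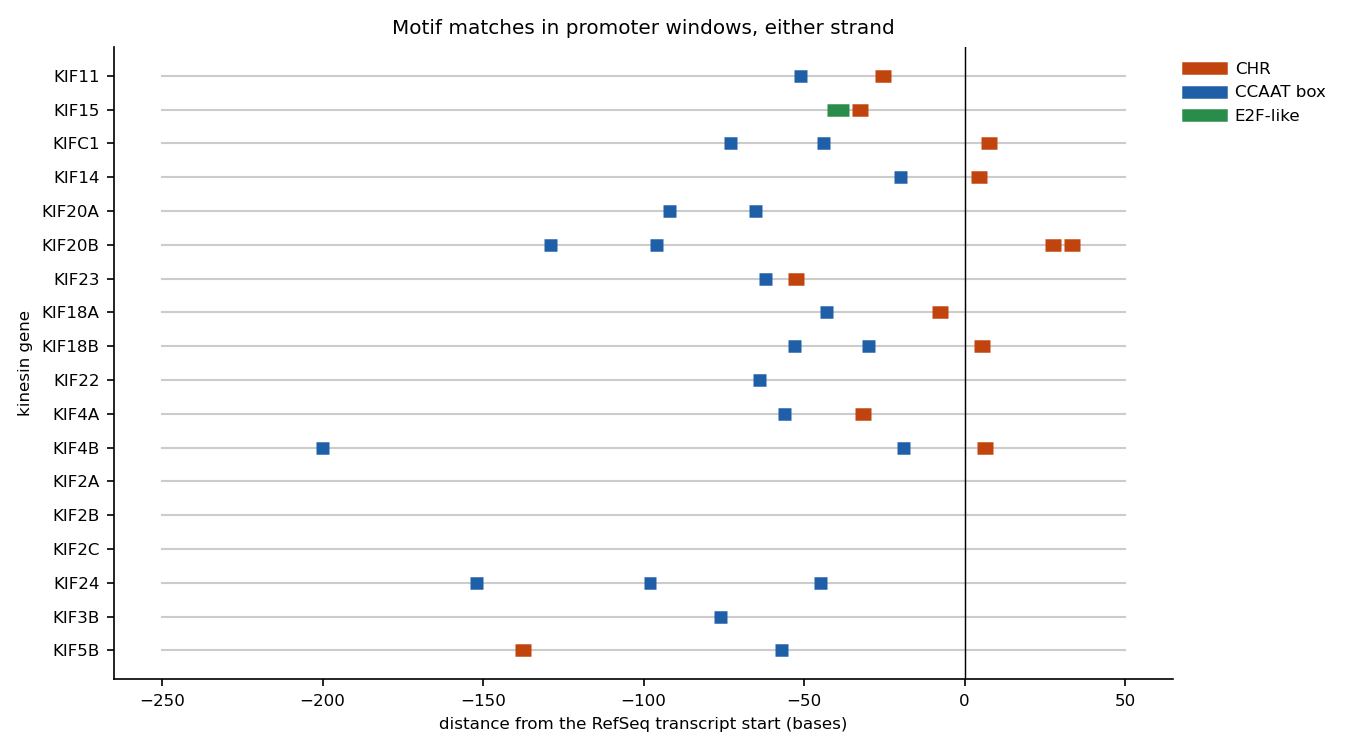
Positions of CHR, CCAAT box and E2F-like matches on either strand, in bases from the RefSeq transcript start (vertical line at 0), for the 15 mitotic kinesins and for KIF24, KIF3B and KIF5B; each grey line is a 300-base window. Matches to TTTGAA in 10 mitotic genes lie near the start, KIF2A, KIF2B and KIF2C hold none of the letters searched, and the KIF5B match begins at -140.

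Before the comparisons, the arrays were checked. CDKN1A, the p53-induced inhibitor of cyclin-dependent kinases, was higher with RG7112 by 3.97 and with HDM201 by 4.10 on the log2 scale, and MDM2, itself a p53 target, by 2.57 and 2.58. Of 6 myeloid markers measured, 5 lay above the median probe and MPO lay below it, while 11 of 14 markers of T, B, erythroid, fibroblast or epithelial cells lay below that median; CD79A, PAX5 and COL1A2 did not. RG7112 replicate 3 stood apart: its interquartile range was 3.45, against 3.70 to 3.91 on the other 17 arrays, and its mean correlation with its own group was 0.972, against 0.986 to 0.988 for the other 5. It was the lowest of the 6 RG7112 arrays for 13 of 15 mitotic kinesins, for 66.3% of the probes lower with RG7112 and for 30.8% of all probes. Some results are therefore also given without it, and all other RG7112 values include it.

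The question was how MDM2 inhibition changed the mitotic kinesins compared with the transport kinesins. With RG7112, 13 of 15 mitotic kinesins were lower than with DMSO and none was higher, against 9.61% of all probes lower and 7.9% higher. With HDM201, 13 of 15 were lower and none was higher, against 9.64% and 9.16% of all probes. A probe was called when its adjusted p was under 0.05 (limma across all 21448 probes, Benjamini-Hochberg). The median difference of the 15 was -1.25 with RG7112 and -1.33 with HDM201, while the median over all probes was 0.03 and 0.02. Without RG7112 replicate 3 the RG7112 median was -1.07, and 12 of 15 were lower. The falls of those 12 then ran between -0.77 (KIF20B) and -1.49 (KIF15), each smaller than with that array. All 6 compound arrays lay below all 6 DMSO arrays for 12 of 15 mitotic kinesins with RG7112 and 13 of 15 with HDM201, against 5.61% and 6.92% of all probes. Of transport kinesins, 0 of 15 were lower with either compound, and 2 with RG7112 and 3 with HDM201 were higher. Of ciliary or other kinesins, only KIF24 was called among 12, and it was lower with both compounds. Of all probes, 9.61% and 9.64% were lower and 7.9% and 9.16% higher. In classes this small, the transport and ciliary counts are therefore close to the background, unlike the mitotic count. Without KIF2A, 12 of 14 mitotic kinesins were lower with each compound, and with KIF24 counted as mitotic, a placement tried after seeing the data, 14 of 16 were. The 2 compound comparisons share their DMSO arrays, and in these bulk samples fewer cells with a transcript and less of it per cell cannot be told apart.

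**Figure D2:**
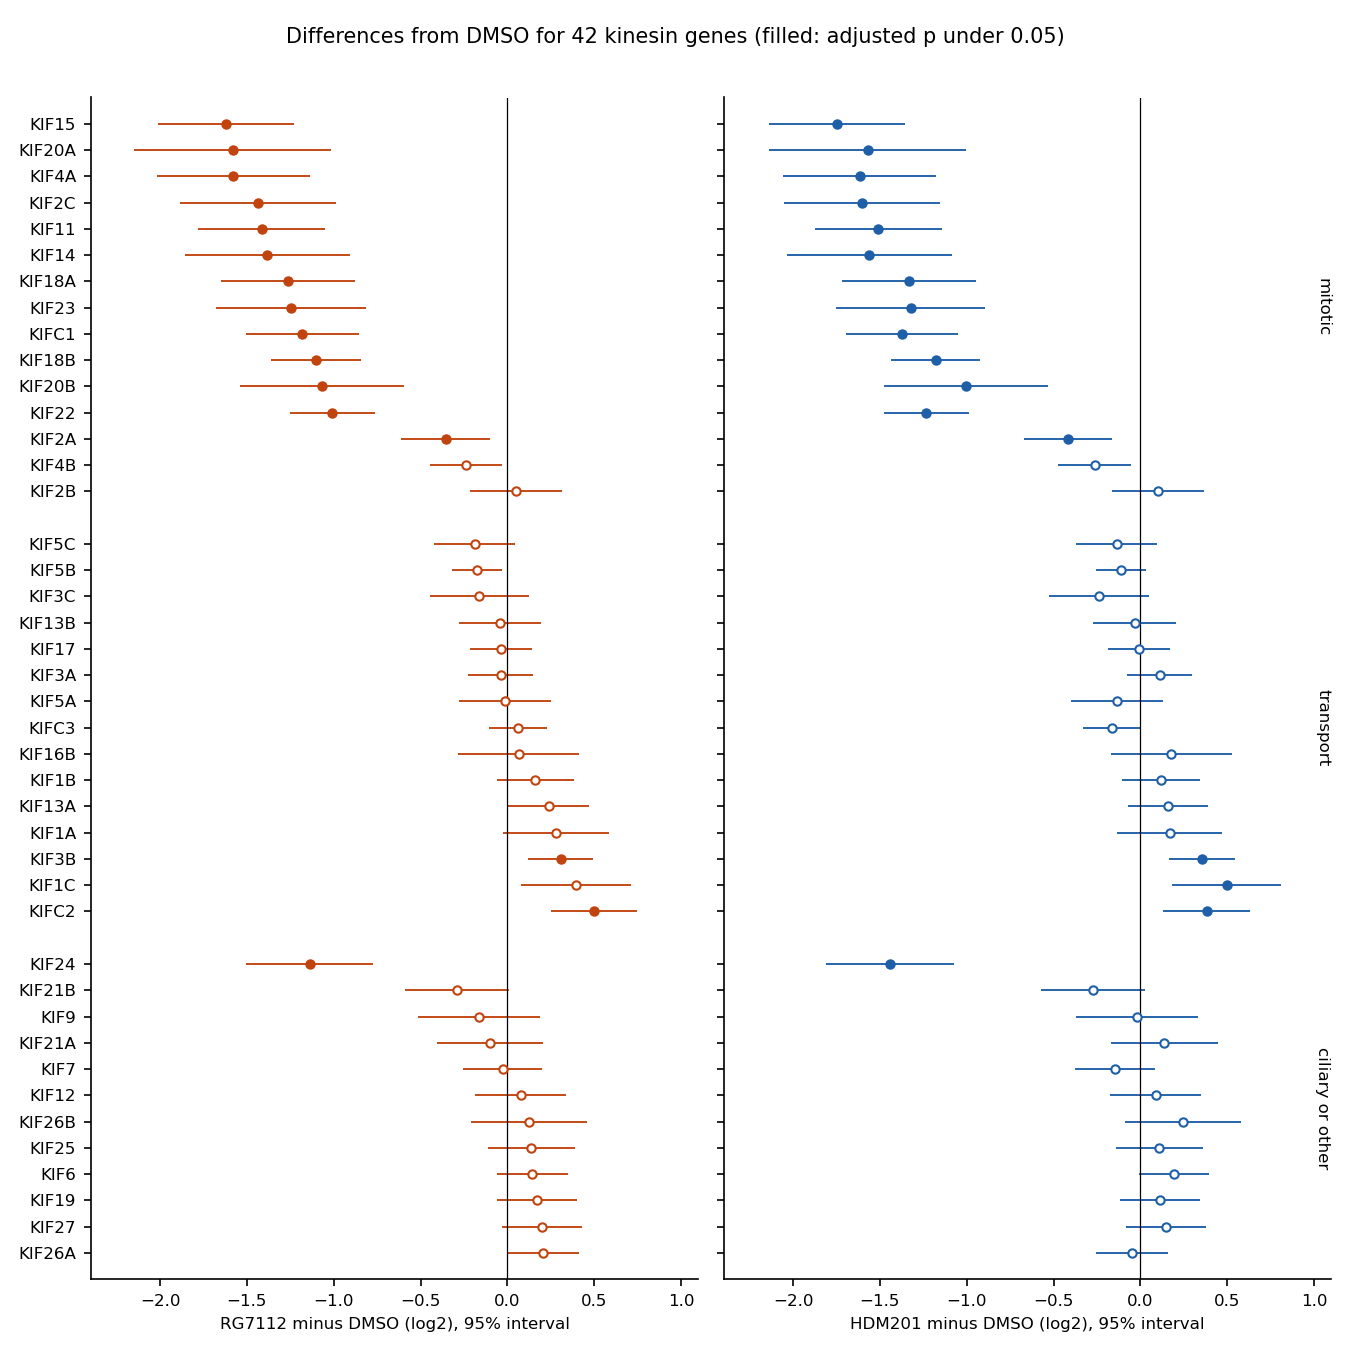
Difference from DMSO on the log2 scale with its 95% interval for the 42 kinesin genes, RG7112 at left and HDM201 at right, grouped as mitotic, transport, and ciliary or other; filled points have an adjusted p under 0.05. In both panels 13 mitotic kinesins and KIF24 are filled and below 0, and the filled transport kinesins lie between 0.31 and 0.50.

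Spindle assembly needs motors that push and pull on opposed microtubules. KIF11, the tetrameric motor (Eg5) that slides antiparallel microtubules to separate the poles, had a lowest, median and highest signal of 7.80, 8.65 and 9.04 with RG7112, 7.94, 8.57 and 8.86 with HDM201, and 9.92, 9.97 and 10.18 with DMSO. Neither compound group overlapped the DMSO arrays. KIF11 fell with both compounds, with a difference of -1.42 ± 0.18 for RG7112 (SE, n = 6 arrays each, 2.67-fold, limma adjusted p = 8.11e-06) and of -1.51 ± 0.18 for HDM201 (2.85-fold, adjusted p = 2.19e-06). KIF15, a motor of bridging microtubules that can stand in for KIF11, had 6.48, 7.21 and 7.59 with RG7112, 6.55, 7.02 and 7.47 with HDM201, and 8.49, 8.77 and 9.14 with DMSO. It had the largest fall of the family with each compound and again no overlap, at -1.62 ± 0.19 with RG7112 (3.08-fold, adjusted p = 3.53e-06) and -1.75 ± 0.19 with HDM201 (3.36-fold, adjusted p = 8.03e-07). Among all 21448 probes, KIF15 ranked 29 from the lowest difference with RG7112 and 51 with HDM201. KIFC1, a minus-end motor that bundles spindle microtubules and clusters centrosomes, had 8.30, 8.68 and 9.12 with RG7112, 7.86, 8.52 and 8.88 with HDM201, and 9.76, 9.83 and 10.03 with DMSO. Its groups did not overlap, and the differences were -1.18 ± 0.16 (adjusted p = 1.52e-05) and -1.37 ± 0.16 (adjusted p = 1.43e-06).

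Motors that work on chromosomes and on the plus ends of microtubules fell as well. KIF22, the chromokinesin (Kid) that pushes chromosome arms away from the poles, had 8.24, 8.49 and 8.76 with RG7112, 7.99, 8.23 and 8.72 with HDM201, and 9.40, 9.52 and 9.59 with DMSO. KIF18A, which damps the movement of kinetochore microtubule ends so that chromosomes align, had 7.14, 8.24 and 8.59 with RG7112, 7.66, 8.04 and 8.38 with HDM201, and 9.14, 9.42 and 9.57 with DMSO. KIF18B, which trims astral microtubules, had 7.06, 7.63 and 7.92 with RG7112, 7.12, 7.55 and 7.67 with HDM201, and 8.50, 8.70 and 8.86 with DMSO. For all 3 every compound array lay below every DMSO array. The differences for RG7112 and HDM201 were -1.01 ± 0.12 and -1.23 ± 0.12 for KIF22, -1.26 ± 0.19 and -1.33 ± 0.19 for KIF18A, and -1.10 ± 0.12 and -1.18 ± 0.12 for KIF18B. Their adjusted p-values ranged between 1.86e-07 for KIF22 with HDM201 and 5.19e-05 for KIF18A with RG7112.

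The kinesin-13 motors take microtubule ends apart instead of walking, and they did not move alike. KIF2C (MCAK), which corrects faulty attachments at centromeres, had 6.62, 7.88 and 8.48 with RG7112, 7.06, 7.72 and 7.95 with HDM201, and 8.997, 9.17 and 9.41 with DMSO. It fell without overlap, with differences of -1.44 ± 0.22 (2.71-fold, adjusted p = 6.75e-05) and -1.60 ± 0.22 (3.04-fold, adjusted p = 1.23e-05). KIF2A, which acts at spindle poles and also in non-dividing cells such as neurons, had 7.83, 8.42 and 8.59 with RG7112, 8.04, 8.29 and 8.46 with HDM201, and 8.47, 8.70 and 8.89 with DMSO. Its RG7112 arrays overlapped DMSO and its HDM201 arrays did not, with differences of -0.36 ± 0.12 (adjusted p = 0.0482) and -0.42 ± 0.12 (adjusted p = 0.0184). Without RG7112 replicate 3 the first was -0.25 and no longer passed (adjusted p = 0.103), and 12 of 15 mitotic kinesins were lower with RG7112. The KIF2A call for RG7112 was lost in 13 of 18 fits with 1 array left out. Its HDM201 call was lost without HDM201 replicate 3 (limma adjusted p = 0.0521). Fitted alone, replicates 1 to 3 and 4 to 6 did not keep the HDM201 call either (adjusted p = 0.0683 and 0.168). KIF2B, a depolymerase of spindle assembly, had 4.49, 4.64 and 5.26 with RG7112, 4.33, 4.85 and 5.12 with HDM201, and 4.60, 4.66 and 4.82 with DMSO. Its groups overlapped and neither difference passed (0.05 with RG7112, adjusted p = 0.837, and 0.10 with HDM201, adjusted p = 0.678). The KIF2B probe was dim, with a mean of 4.74 near the 25th percentile of all probes (4.65), which limits what can be seen. The fourth kinesin-13, KIF24, sits on the mother centriole, where it restrains the growth of a cilium. KIF24 had 5.37, 5.89 and 6.28 with RG7112, 5.11, 5.62 and 5.99 with HDM201, and 6.74, 6.96 and 7.27 with DMSO. All its compound arrays lay below the DMSO arrays, and it fell, with differences of -1.14 ± 0.18 (2.20-fold, adjusted p = 8.91e-05) and -1.44 ± 0.18 (2.72-fold, adjusted p = 3.63e-06).

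Motors of the spindle midzone and of cytokinesis made up the next group. The 3 kinesin-6 motors, KIF20A, KIF23 and KIF20B, all fell. KIF20A (MKLP2), which brings the chromosomal passenger complex to the midzone, had 6.28, 8.14 and 8.82 with RG7112, 7.57, 7.90 and 8.34 with HDM201, and 9.33, 9.53 and 9.61 with DMSO. KIF23 (MKLP1), a subunit of the centralspindlin complex, had 6.97, 8.41 and 8.63 with RG7112, 7.70, 8.08 and 8.50 with HDM201, and 9.23, 9.43 and 9.55 with DMSO. KIF20B, a motor of late cytokinesis, had 7.36, 9.13 and 9.32 with RG7112, 8.74, 8.86 and 9.23 with HDM201, and 9.81, 9.92 and 10.04 with DMSO. No compound array of these 3 genes reached the lowest DMSO array, and the lowest RG7112 value of each came from replicate 3. The differences for RG7112 and HDM201 were -1.58 ± 0.27 and -1.57 ± 0.27 for KIF20A, -1.25 ± 0.21 and -1.32 ± 0.21 for KIF23, and -1.07 ± 0.23 and -1.005 ± 0.23 for KIF20B. The largest of the 6 adjusted p-values was 0.00276, for KIF20B with HDM201. Without replicate 3 the RG7112 differences were -1.26 for KIF20A, -1.01 for KIF23 and -0.77 for KIF20B, and all 3 still passed.

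KIF4A, a chromokinesin that limits the length of midzone microtubules with PRC1, had 6.35, 7.55 and 8.05 with RG7112, 6.75, 7.45 and 7.76 with HDM201, and 8.82, 8.94 and 9.18 with DMSO. KIF4A fell without overlap, with differences of -1.58 ± 0.21 (2.98-fold, adjusted p = 1.88e-05) and -1.62 ± 0.21 (3.07-fold, adjusted p = 8.6e-06). KIF4B, an intronless near-copy of KIF4A, had 3.75, 4.02 and 4.19 with RG7112, 3.78, 3.99 and 4.14 with HDM201, and 3.95, 4.25 and 4.46 with DMSO. Its groups overlapped, it lay below the 25th percentile of all probes (4.65), and its differences of -0.24 and -0.26 did not pass (adjusted p = 0.112 and 0.0736). Because the 2 copies are so alike, neither probe can be taken as specific to its gene, and the HDM201 difference of KIF4B did pass in 4 alternatives given in the closing part. KIF14, which works with citron kinase at the midbody, had 7.23, 8.68 and 9.10 with RG7112, 7.82, 8.38 and 8.71 with HDM201, and 9.76, 9.91 and 10.02 with DMSO. Again no arrays overlapped, and the differences were -1.38 ± 0.23 (adjusted p = 0.000179) and -1.56 ± 0.23 (adjusted p = 3.23e-05).

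**Figure D3:**
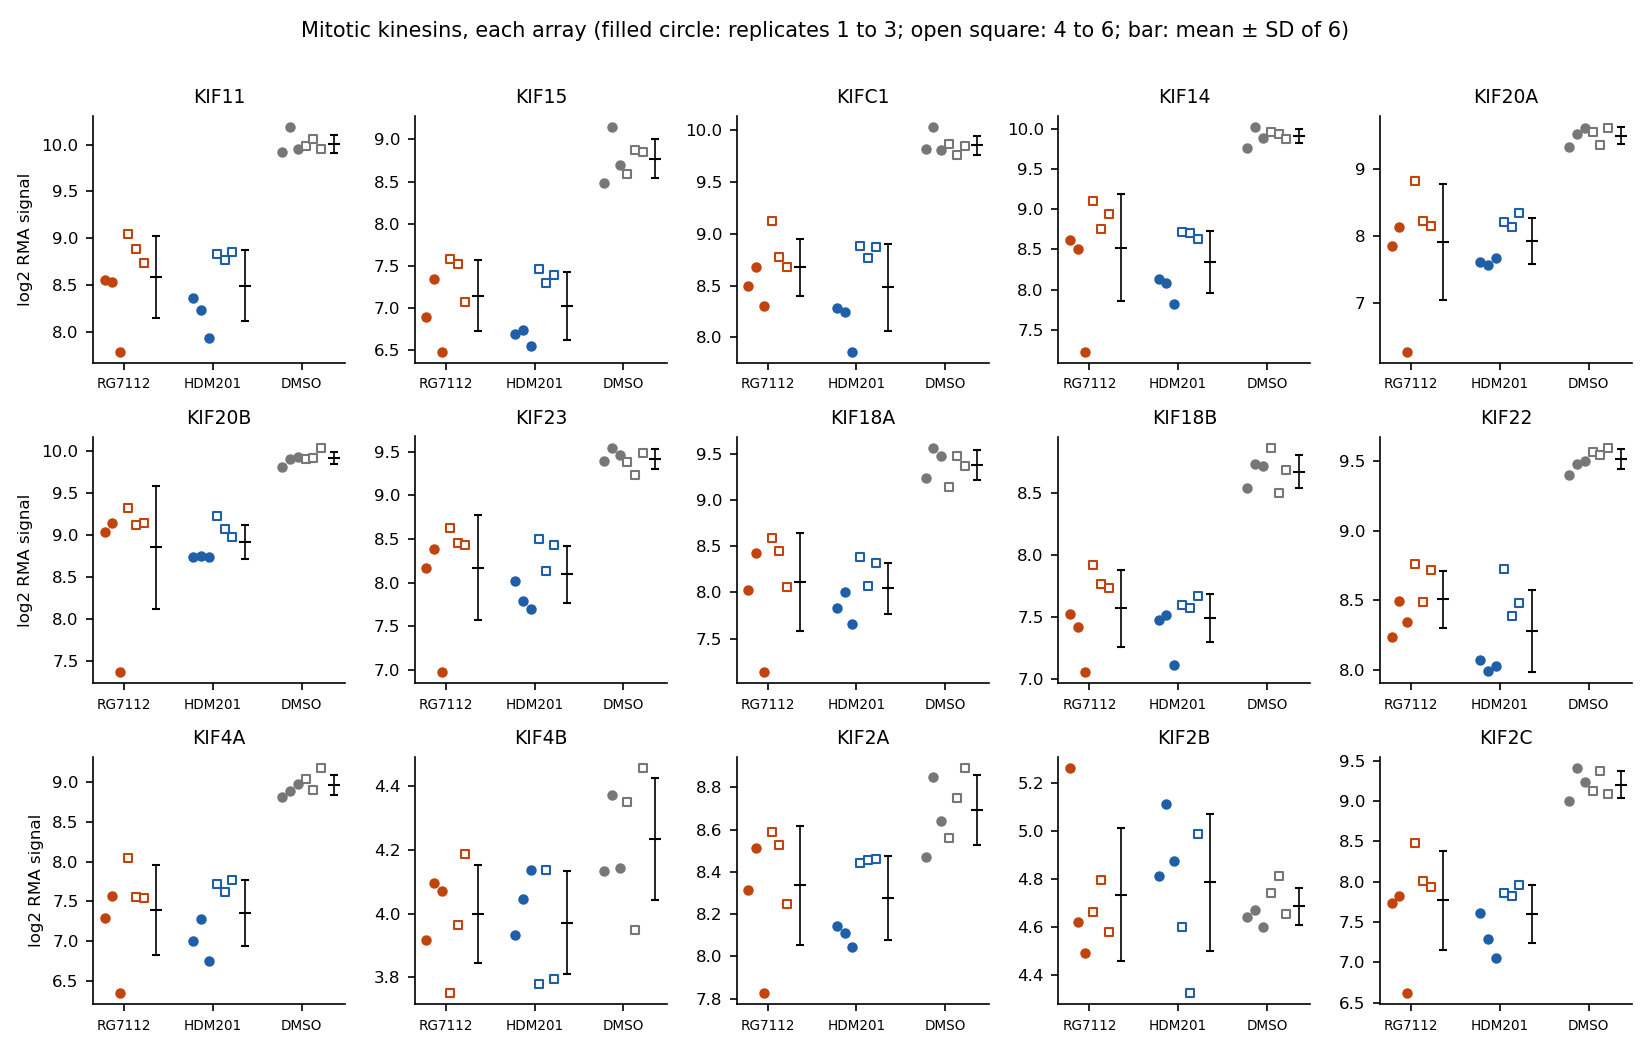
Log2 signal of each of the 15 mitotic kinesins on every array, with RG7112, HDM201 and DMSO from left to right; filled circles are replicates 1 to 3, open squares replicates 4 to 6, and the bar gives mean ± SD of 6 arrays, on a separate axis range for each gene. For 12 genes both compound groups lie wholly below the DMSO group, KIF2A with RG7112 overlaps it, and KIF2B and KIF4B overlap it with both compounds.

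The transport kinesins kept close to their DMSO values. With RG7112 the 15 differences ran between -0.19 and 0.50, and with HDM201 between -0.24 and 0.50. KIF3B, the subunit that pairs with KIF3A in the kinesin-2 motor of cilia, had 7.42, 7.69 and 7.82 with RG7112, 7.48, 7.72 and 7.88 with HDM201, and 7.17, 7.34 and 7.63 with DMSO. It rose with overlapping groups, by 0.31 ± 0.09 (1.24-fold, adjusted p = 0.0225) and by 0.36 ± 0.09 (1.28-fold, adjusted p = 0.00727). KIFC2, a minus-end motor known from neurons, had 7.56, 7.73 and 8.25 with RG7112, 7.55, 7.70 and 7.83 with HDM201, and 6.97, 7.31 and 7.60 with DMSO. KIFC2 rose by 0.50 ± 0.12 (1.41-fold, adjusted p = 0.00563) and by 0.38 ± 0.12 (1.30-fold, adjusted p = 0.0283), again with overlap. KIF1C, which carries vesicles and mRNA to the cell edge, had 8.02, 8.41 and 8.74 with RG7112, 7.95, 8.42 and 9.01 with HDM201, and 7.67, 8.001 and 8.20 with DMSO. Its groups overlapped, and it rose with HDM201 by 0.50 ± 0.15 (1.41-fold, adjusted p = 0.0236). With RG7112 its difference of 0.39 ± 0.15 did not pass (adjusted p = 0.0792) but did with the replicate set as a covariate (adjusted p = 0.0205), and it differed between the compounds by only 0.10, with a 95% interval of -0.21 to 0.42.

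Some of these small rises depended on single arrays. KIFC2 with RG7112 and KIF3B with HDM201 kept their calls in all 18 fits with 1 array left out. KIFC2 with HDM201 lost its call in 7 of 18 such fits, KIF3B with RG7112 in 4 and KIF1C with HDM201 in 3. Fitted within 1 replicate set, KIF3B with HDM201 passed neither in 1 to 3 nor in 4 to 6 (limma adjusted p = 0.107 and 0.0833). KIFC2 did not pass in replicates 1 to 3, at 0.42 with RG7112 (adjusted p = 0.0919) and 0.20 with HDM201 (adjusted p = 0.475). The number of transport kinesins higher ranged from 1 to 4 with RG7112 and from 1 to 3 with HDM201 when 1 array at a time was left out. With RG7112 it was 1 (KIFC2) without RG7112 replicate 1 or DMSO replicate 3, 4 or 6, and 4 without RG7112 replicate 2. With HDM201 it was 1 (KIF3B) without DMSO replicate 5 or HDM201 replicate 2 or 3. Within the DMSO group, KIFC2 had 0.47 more in replicates 1 to 3 than in 4 to 6, which did not pass (adjusted p = 0.122) but did without RG7112 replicate 3 (adjusted p = 0.0159).

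The largest transport difference with HDM201 that did not pass was that of KIF3C, another kinesin-2 motor subunit, at -0.24 ± 0.14 (adjusted p = 0.283). KIF5B, the kinesin-1 heavy chain found in most cells, had 10.35, 10.48 and 10.68 with RG7112, 10.44, 10.55 and 10.68 with HDM201, and 10.60, 10.66 and 10.73 with DMSO. Its groups overlapped and its differences were -0.18 (95% interval -0.32 to -0.03, adjusted p = 0.0868) and -0.11 (-0.26 to 0.03, adjusted p = 0.311). The falls of the 13 mitotic kinesins called lower with each compound lay outside the KIF5B interval for that compound. With RG7112 it passed as lower without RG7112 replicate 2. KIF5C, whose probe is annotated to a non-coding transcript, lay below the 25th percentile of all probes and its differences of -0.19 and -0.14 did not pass. The other transport kinesins, KIF1A, KIF1B, KIF3A, KIF5A, KIF13A, KIF13B, KIF16B, KIF17 and KIFC3, also did not pass with either compound, at differences between -0.16 and 0.28.

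**Figure D4:**
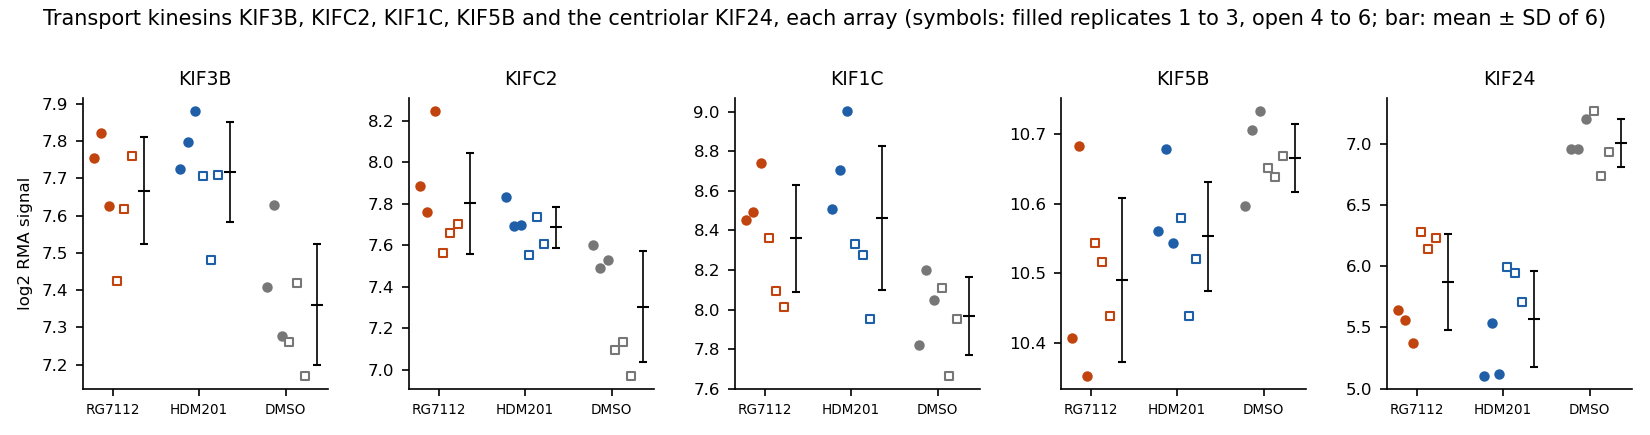
Log2 signal on every array of the transport kinesins KIF3B, KIFC2, KIF1C and KIF5B and of the centriolar KIF24, with RG7112, HDM201 and DMSO from left to right; filled circles are replicates 1 to 3, open squares replicates 4 to 6, bars mean ± SD of 6 arrays, on a separate axis range for each gene. The groups overlap for all 4 transport kinesins, and all compound arrays of KIF24 (5.11 to 6.28) lie below its DMSO arrays (6.74 to 7.27).

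Among the 12 ciliary or other kinesins, 11 did not pass with either compound, at differences between -0.29 and 0.25. The largest of these was KIF21B, a motor that also restrains microtubule growth in neurons and lymphocytes, with -0.29 ± 0.14 (adjusted p = 0.175) with RG7112 and -0.27 ± 0.14 (adjusted p = 0.226) with HDM201. Without RG7112 replicate 3, the RG7112 difference was -0.14 (adjusted p = 0.399) and the HDM201 difference, still -0.27, passed (adjusted p = 0.0432). KIF7 and KIF27 are tied to Hedgehog signalling and cilia, KIF19 trims the tips of cilia, and KIF26A and KIF26B are atypical motors with roles in signalling. KIF6, KIF9, KIF12, KIF21A and KIF25 completed the class, and KIF6 lay below the 25th percentile of all probes. The antisense RNA KIF25-AS1 did not pass either, with differences of 0.26 (adjusted p = 0.165) and 0.10 (adjusted p = 0.666).

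Members of 1 sequence subfamily did not all move alike. Within kinesin-3, KIF14 fell with both compounds. Of its 6 transport relatives (KIF1A, KIF1B, KIF1C, KIF13A, KIF13B and KIF16B), 0 were lower, and KIF1C rose with HDM201. Of all probes 9.61% and 9.64% were lower, so a count of 0 among 6 is close to that share. Within kinesin-4, KIF4A fell and the other 5 (KIF4B, on a dim probe, KIF7, KIF21A, KIF21B and KIF27) did not pass. In kinesin-8, KIF18A and KIF18B fell and KIF19 did not pass. In kinesin-12, KIF15 fell and KIF12 did not pass (0.08 with RG7112 and 0.09 with HDM201). Kinesin-14 held motors of both directions, since KIFC1 fell, KIFC2 rose, and KIFC3 and KIF25 did not pass.

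Set against each other at their different doses, HDM201 and RG7112 gave no called difference in any of the 43 genes. Across all probes 0 were called by limma and 749 (3.49%) had an unadjusted p under 0.05. Among the 42 motor genes, 2 did, and both were chosen after their values were seen. They were KIF26A (-0.25, 95% interval -0.46 to -0.04) and KIFC3 (-0.22, -0.39 to -0.06), each with adjusted p = 0.991. The difference was below 0 for 12 of 15 mitotic kinesins, with a median of -0.08, and their 95% intervals together spanned -0.65 to 0.58. The widest belonged to KIF20A, at 0.01 with an interval of -0.55 to 0.58. KIF24 had the largest difference of the family, -0.30 with an interval of -0.67 to 0.06. These intervals leave room for differences of that size in either direction, and the doses of 2 µM and 500 nM were not matched. All these direct values include RG7112 replicate 3. Without it, the median mitotic difference from DMSO was -1.07 with RG7112 and -1.33 with HDM201, further apart than with all arrays. No kinesin was called between the compounds in any of 18 fits with 1 array left out.

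The median fall was larger in replicates 1 to 3 than in 4 to 6, but no kinesin passed the test of that difference in the main fit. Replicates 1 to 3 and 4 to 6 were compared because earlier results on these arrays had shown the 2 sets apart, and the labels name no batch. Since the split was chosen from these same arrays, p-values for differences between the sets are descriptive. They are not independent evidence that the sets differ. The mean signal over the 15 mitotic kinesins was 6.82, 7.59 and 7.71 on RG7112 replicates 1 to 3 and 7.74, 7.82 and 8.03 on replicates 4 to 6, each from lowest to highest. With HDM201 it was 7.20, 7.38 and 7.38 on replicates 1 to 3 and 7.69, 7.79 and 7.80 on replicates 4 to 6. In the DMSO group it was 8.58, 8.71 and 8.82 on replicates 1 to 3 and 8.70, 8.71 and 8.77 on replicates 4 to 6. The sets did not overlap under either compound and did overlap under DMSO.

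Within replicates 1 to 3 the median mitotic difference was -1.57 with RG7112 and -1.64 with HDM201, and within replicates 4 to 6 it was -0.96 and -1.07. Without RG7112 replicate 3, the RG7112 median within replicates 1 and 2 was -1.20, and the median difference between the sets was -0.28, against -0.51 with all arrays. Called as lower were 12 of 15 mitotic kinesins with RG7112 and 13 of 15 with HDM201 in replicates 1 to 3, against 8.64% and 8.89% of all probes. In replicates 4 to 6 it was 11 of 15 with each, against 3.87% and 4.46%. The fall was steeper in replicates 1 to 3 for 13 of 15 mitotic kinesins with each compound, the exceptions being KIF2B and KIF4B. None of these differences between sets passed in limma for any kinesin (0 of 42 with each compound, against 0.0373% and 0.149% of all probes). At an unadjusted p under 0.05, 7 of 15 mitotic kinesins differed with RG7112 and 4 of 15 with HDM201, against 6.1% and 6.13% of all probes. Without RG7112 replicate 3 these numbers were 1 of 15 and 11 of 15, against 6.13% and 9.74% of all probes, and again no kinesin passed after adjustment. With array weights, KIF24 passed for RG7112 (-0.71, adjusted p = 0.0341), and KIF11 (-0.69, adjusted p = 0.0458) and KIFC1 (-0.76, adjusted p = 0.0357) for HDM201.

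Within the HDM201 arrays alone, replicates 1 to 3 all lay below replicates 4 to 6 for 13 of 15 mitotic kinesins, against 13.3% of all probes. In the RG7112 group this held for 7 of 15, against 7.62% of all probes (7 of 15 and 12.9% without replicate 3), and in the DMSO group for 1 of 15 (KIF22), against 6.95%. By limma, KIF11 (-0.64, adjusted p = 0.0447), KIF22 (-0.50, adjusted p = 0.0167) and KIFC1 (-0.71, adjusted p = 0.00731) were lower in HDM201 replicates 1 to 3 than in 4 to 6, against 1.23% of all probes called lower. KIF24 was lower in replicates 1 to 3 with RG7112 (-0.69, adjusted p = 0.0176, against 0.946% of all probes called lower) and with HDM201 (-0.63, adjusted p = 0.024). Without RG7112 replicate 3, the first no longer passed (-0.62, adjusted p = 0.0507), and 10 of 15 mitotic kinesins were called lower in HDM201 replicates 1 to 3, against 3.28% of all probes. In the DMSO arrays no kinesin was called between the sets in the main fit (0 of 42 by limma and 2 at an unadjusted p under 0.05, against 0.303% and 5.86% of all probes), and the 15 mitotic differences ran between -0.14 and 0.11. The transport kinesin KIFC2 did pass in limma without RG7112 replicate 3 (0.47, adjusted p = 0.0159) and with array weights (0.50, adjusted p = 0.00152). What sets the replicates apart was not tested, since the labels do not give it. As the split was chosen from these arrays, the p-values between sets are descriptive only.

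**Figure D5:**
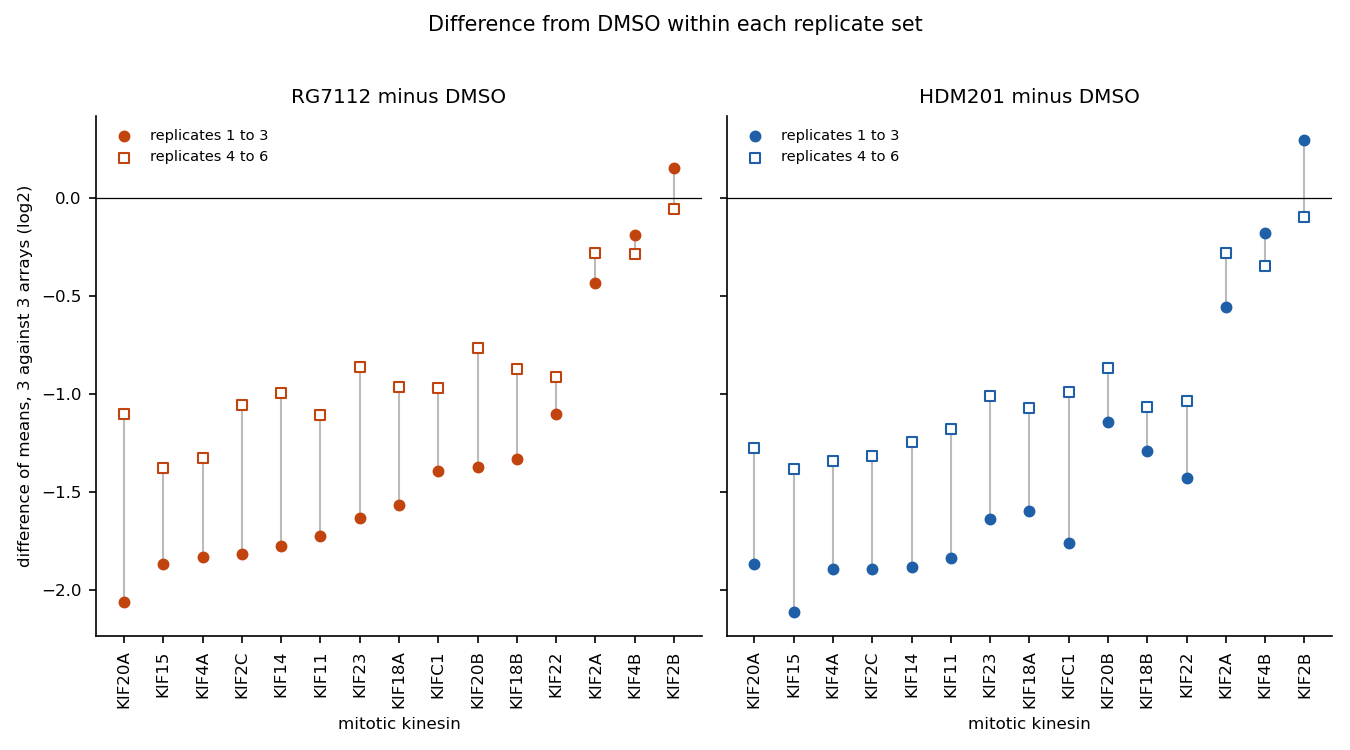
Difference from DMSO on the log2 scale within replicates 1 to 3 (filled circles) and within replicates 4 to 6 (open squares), 3 against 3 arrays, for each of the 15 mitotic kinesins, RG7112 at left and HDM201 at right. The filled circle lies below the square for all but KIF4B and KIF2B, with medians of -1.57 against -0.96 for RG7112 and -1.64 against -1.07 for HDM201.

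Genes of proteins that work with mitotic kinesins moved in the same direction. Of 16 such genes measured, 16 fell with each compound, against 9.61% and 9.64% of all probes, with medians of -1.18 with RG7112 and -1.30 with HDM201. ECT2, the exchange factor for RhoA that binds centralspindlin, had 4.73, 6.43 and 6.74 with RG7112, 5.37, 5.69 and 6.64 with HDM201, and 7.24, 7.71 and 7.98 with DMSO. ECT2 fell without overlap, with differences of -1.56 ± 0.28 (adjusted p = 0.00041) and -1.79 ± 0.28 (adjusted p = 6.71e-05). SPAG5 (astrin), which stabilises kinetochore fibres, fell as well (-1.505 ± 0.19 with RG7112 and -1.81 ± 0.19 with HDM201). The differences were -1.465 ± 0.14 and -1.78 ± 0.14 for NDC80, the outer kinetochore's microtubule binder, and -1.32 ± 0.16 and -1.45 ± 0.16 for ANLN, the scaffold of the contractile ring, and both genes fell with each compound. The list was written from textbook roles with earlier results of these data known.

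Of 16 light chains and cargo adaptors of transport kinesins, 0 fell and 4 rose with each compound. Of all probes, 9.61% and 9.64% were lower and 7.9% and 9.16% higher, so the 0 that fell is close to the background. MAPK8IP3, a scaffold that links cargo to kinesin-1 and dynein, rose by 0.52 ± 0.12 and 0.47 ± 0.12, and PLEKHM2, which couples lysosomes to kinesin-1, by 0.39 ± 0.10 and 0.38 ± 0.10. RAB6A, a Golgi GTPase, rose by 0.32 ± 0.11 and 0.34 ± 0.11, but lost the call in 8 of 18 fits with RG7112 and 6 of 18 with HDM201 when 1 array was left out. RHOT2, a mitochondrial anchor for motors, rose with RG7112 by 0.31 ± 0.10 (adjusted p = 0.0415, lost in 6 of 18 such fits) and had 0.20 ± 0.10 with HDM201 (adjusted p = 0.192). TRAK1, another mitochondrial adaptor, named after its values were seen, rose with HDM201 by 0.22 ± 0.07 (adjusted p = 0.0216, lost in 2 of 18). KIFAP3, the accessory subunit of kinesin-2, had -0.20 ± 0.11 and -0.22 ± 0.11 and did not pass. Dynein and dynactin, which carry cargo the other way, had 1 of 25 genes higher with RG7112 (DCTN5, 0.28 ± 0.09) and 2 with HDM201 (DCTN5, 0.43 ± 0.09, and DCTN4, 0.21 ± 0.07), against 7.9% and 9.16% of all probes, so no share above the background. With 1 array left out, DCTN5 lost its RG7112 call in 8 of 18 fits and DCTN4 its HDM201 call in 2 of 18. The dynein adaptor HOOK3 had -0.38 ± 0.14 and -0.32 ± 0.14 and did not pass (adjusted p = 0.0643 and 0.126). HOOK3 did pass with RG7112 without RG7112 replicate 1 (-0.45, adjusted p = 0.0364) and with HDM201 without RG7112 replicate 3 (-0.32, adjusted p = 0.00696).

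Of 16 genes of alpha and beta tubulin, the subunits of microtubules, 11 fell with each compound, against 9.61% and 9.64% of all probes, and 0 rose. Their median difference was -0.43 with RG7112 and -0.54 with HDM201. TUBA4A, an alpha tubulin, had 7.53, 7.98 and 8.09 with RG7112, 7.14, 7.54 and 8.12 with HDM201, and 9.26, 9.40 and 9.64 with DMSO. TUBA4A fell without overlap, with differences of -1.52 ± 0.14 (2.87-fold, adjusted p = 2.54e-07) and -1.79 ± 0.14 (3.46-fold, adjusted p = 1.52e-08). TUBA8 (-1.23 ± 0.13 and -1.29 ± 0.13), TUBA1A (-0.67 ± 0.10 and -0.77 ± 0.10) and the beta tubulin TUBB (-0.66 ± 0.11 and -0.81 ± 0.11) also fell with each. TUBA3D did not pass, at 0.10 and -0.26. Tubulin genes are alike in sequence, so a probe of 1 may read another.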

How the data were processed

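Biotin-labelled total RNA was measured on 18 arrays. The authors deposited log2 values made with oligo and RMA, per the submitters' processing notes, with versions not given in the sources used here; RMA includes quantile normalization over the arrays, so differences are relative to the other probes. Symbols came from the platform annotation (17709 probes with 1 symbol, 3739 with none). From these log2 values, limma 3.58.1 (R 4.3.3) was fitted to all 21448 probes and 18 arrays with group means, or with 6 means of group and replicate set for the replicate sets, and Benjamini-Hochberg adjustment ran over all probes. The fits were tested on simulated data. No 2 arrays held identical values. Motifs were counted with Python 3.11.15. Named were all mitotic kinesins, every other kinesin called in a contrast, in each class the largest difference not called, and from each partner list up to 4 called genes and the largest not called; highest and lowest levels were not named, since probes differ in brightness. The members, role classes and lists were chosen with earlier results of these data known. P-values measure only the spread between these samples, which may be technical. Alternatives were other variance priors, array weights, filters on dim probes, scalings, replicate terms, single arrays left out, and a call rule with a difference of at least 1.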

Additional observations from a re-analysis of the deposited data

Results flagged for a closer look

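Of 180 groups of 6 arrays examined, 15 had 1 array far from the other 5, where chance flags about 1 in 20. RG7112 replicate 3 was the low array for KIF14 (7.23, the other RG7112 arrays 8.51 to 9.10), KIF20B (7.36, others 9.04 to 9.32), KIF23 (6.97, others 8.16 to 8.63), KIF21B (6.45, others 7.27 to 7.50) and the dynein adaptor HOOK3 (7.81, others 8.66 to 8.95), and the high array for KIF6 (4.05, others 3.52 to 3.71). HDM201 replicate 3 was low for KIF18B (7.12, others 7.48 to 7.67) and KIF13B (7.47, others 7.84 to 8.06). KIF12 was low on RG7112 replicate 6 (5.31) and high on HDM201 replicate 2 (6.28). KIF5A was low on RG7112 replicate 5 (4.29) and KIF9 on HDM201 replicate 1 (6.56). Among the DMSO arrays, KIF13B was high on replicate 6 (8.15), DCTN4 high on replicate 3 (10.60) and PLEKHM2 low on replicate 2 (8.43). The falls of KIF14, KIF20B and KIF23 passed without RG7112 replicate 3 (adjusted p = 1.77e-05, 5.42e-06 and 1.17e-05 in limma).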

How the results depend on the processing

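The counts of mitotic kinesins lower than DMSO stayed between 12 and 13 with RG7112 and between 12 and 14 with HDM201 when 1 array was left out, and over all counts and alternatives 346 values stayed within 1.5 times and 28 did not. The transport count moved most. Transport kinesins higher with RG7112 numbered 1 after subtracting array medians, 0 within replicates 1 to 3 fitted alone, 1 within 4 to 6, 0 with a difference of at least 1 required, and 1 to 4 with 1 array left out. With HDM201 they numbered 1 within each set, 0 with a difference of at least 1, and 1 to 3 with 1 array left out. Transport kinesins lower with RG7112 numbered 1 (KIF5B) with array medians subtracted or probes below the median left out, and 0 to 1 with 1 array left out. Ciliary or other kinesins lower numbered 0 with each compound when probes below the median, KIF24 among them, were left out or when KIF24 was counted as mitotic (added after seeing the data), and with HDM201 2 (KIF24 and KIF21B) with array weights and 1 to 2 with 1 array left out. With array weights, 1 kinesin (RG7112) and 2 kinesins (HDM201) passed for the difference between replicate sets, and 1, KIFC2, differed between DMSO sets; the last count ran from 0 to 1 with 1 array left out. The sign of KIF2B, which passed nowhere, reversed. With RG7112 it lay between -0.056 and 0.098 with 1 array left out, and was -0.0031 with medians subtracted, -0.018 with quantile normalization and -0.056 within replicates 4 to 6, and with HDM201 it was -0.098 within 4 to 6. KIF2A with RG7112 lost its call in 13 of 18 fits with 1 array left out, and KIF2A with HDM201 in 1. KIF4B with HDM201 passed with array weights, subtracted medians, quantile normalization or without DMSO replicate 5 (adjusted p = 0.0367, 0.045, 0.0452 and 0.0285). HOOK3 also passed with RG7112 after median subtraction or without probes below the median (adjusted p = 0.0383 and 0.0416), and with HDM201 with array weights or only the 2 groups compared (adjusted p = 0.0135 and 0.0124). RAB6A lost its RG7112 call with array weights or only the 2 groups (adjusted p = 0.0675 and 0.0524) and both calls after median subtraction (adjusted p = 0.094 and 0.0586), where RHOT2 and DCTN5 with RG7112 and DCTN4 with HDM201 were lost too (adjusted p = 0.083, 0.136 and 0.111). The cause of these shifts was not tested. Same-numbered arrays deviated together with correlations between 0.0168 and 0.44. Of these 18, 16 exceeded 0.1, and since not every pair did and the labels state no pairing, the numbers were not taken as pairs. As a hint from the data towards a pairing, 11 of 18 arrays correlated best with their own number in both other groups. The main fit holds group means only and does not use this structure. With the replicate number as a block, 13 of 15 mitotic kinesins were lower with each compound, and KIF1C (adjusted p = 0.00941) and HOOK3 (adjusted p = 0.0236) passed with RG7112. Each symbol had 1 probe, so averaging probes changed nothing. Dim probes such as KIF2B, KIF4B, KIF5C and KIF6 limit what can be seen.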
